A study of Mus musculus with 6 samples.

Results

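The 34 genes described here encode the integrin subunits and laminin chains measured in MC3T3-E1 osteoblasts, a clonal preosteoblast line (subclone 4) from mouse calvaria. They were chosen by symbol, as the rows whose gene identifier maps to a protein-coding *Itga*, *Itgb1* to *Itgb8*, *Lama*, *Lamb* or *Lamc* gene, and make up 34 of 24016 genes. Of these, 15 are integrin α subunits, 8 are integrin β subunits and 11 are laminin chains, with 5 α, 3 β and 3 γ chains. The annotation holds 37 genes that match the rule, and *Itga4*, *Itgad* and *Itgam* were not analysed here.

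Integrins are receptors made of an α and a β subunit that cross the plasma membrane and link the extracellular matrix to the actin cytoskeleton. The α subunit largely sets the ligand, so that they are grouped into receptors of collagens, of laminins, of the arginine-glycine-aspartate (RGD) motif in fibronectin and vitronectin, and receptors of leukocytes. The β1 subunit pairs with most of them. Laminins are secreted trimers of an α, a β and a γ chain that assemble basement membranes and are themselves ligands of integrins. Osteoblasts attach through integrins to the collagen and fibronectin that they lay down, and this attachment is known to act on their survival and differentiation.

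The cells were differentiated for 6 days with β-glycerophosphate (10 mM) and ascorbic acid (50 μg/ml). Treatment lasted 24 h and was either vehicle or the glucocorticoid corticosterone at 100 nM, and the labels give 10 nM calcitriol as present during it. Total RNA of 3 vehicle cultures and 3 corticosterone cultures was sequenced, all of them wild type. Both groups come from the same clonal line, and the study's methods describe the 3 cultures of a group as biological replicates, so that p-values measure the spread between cultures of this line. The comparison asks which adhesion genes changed after a day of glucocorticoid.

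The deposited values, which are referred to as normalized counts, are reads per gene scaled by a size factor of each library. Between 16020401 and 25638645 reads per library fell on genes, and each corticosterone library was shallower than each vehicle library. A count of 3 reads corresponds to a normalized count of 2.32 to 3.84 and was taken as the floor. This floor covers counting error only. Log2 fold changes are corticosterone over vehicle on log2(normalized count + 0.1) from limma, given with their standard error (SE), and a gene is said to have risen or fallen where the adjusted p over all 24016 genes was under 0.05. In the exact permutation test of 3 against 3 libraries, the smallest p is 0.1, so that no single gene could pass 0.05 in it.

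Of the 34 members, 12 rose and 6 fell after corticosterone. Over all genes, 8.49% rose and 8.2% fell, and among the 13880 genes with a mean normalized count of at least 10 these shares were 14.2% and 13.5%. Each of the 18 members that changed belongs to the 29 members with such a mean, and none of the 5 with a lower mean changed. The integrin subunits held 9 of the rises and 4 of the falls, and the laminin chains 3 and 2. The median log2 fold change was 0.27 over the members, 0.30 over the integrin subunits and 0.05 over the laminin chains, against -0.01 over all genes tested. An absolute log2 fold change over 1 was also passed by 3 members that rose, *Itga10* and *Lama5* among them, and by 1 that fell, *Lamb3*, where 1.38% of all genes rose and 1.4% fell by that much. Without a variance trend in limma, 10 of the 18 calls were kept, and those lost included *Itga3*, *Itgav*, *Itgb2*, *Itgb3*, *Lama4*, *Lama5* and *Lamc1*, all 18 in the same direction. The 3 corticosterone libraries lay outside the range of the 3 vehicle libraries in 24 members, and in 29.6% of all genes. These are bulk RNA values, in which fewer cells of a type and less RNA per cell cannot be told apart.

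**Figure D1:**
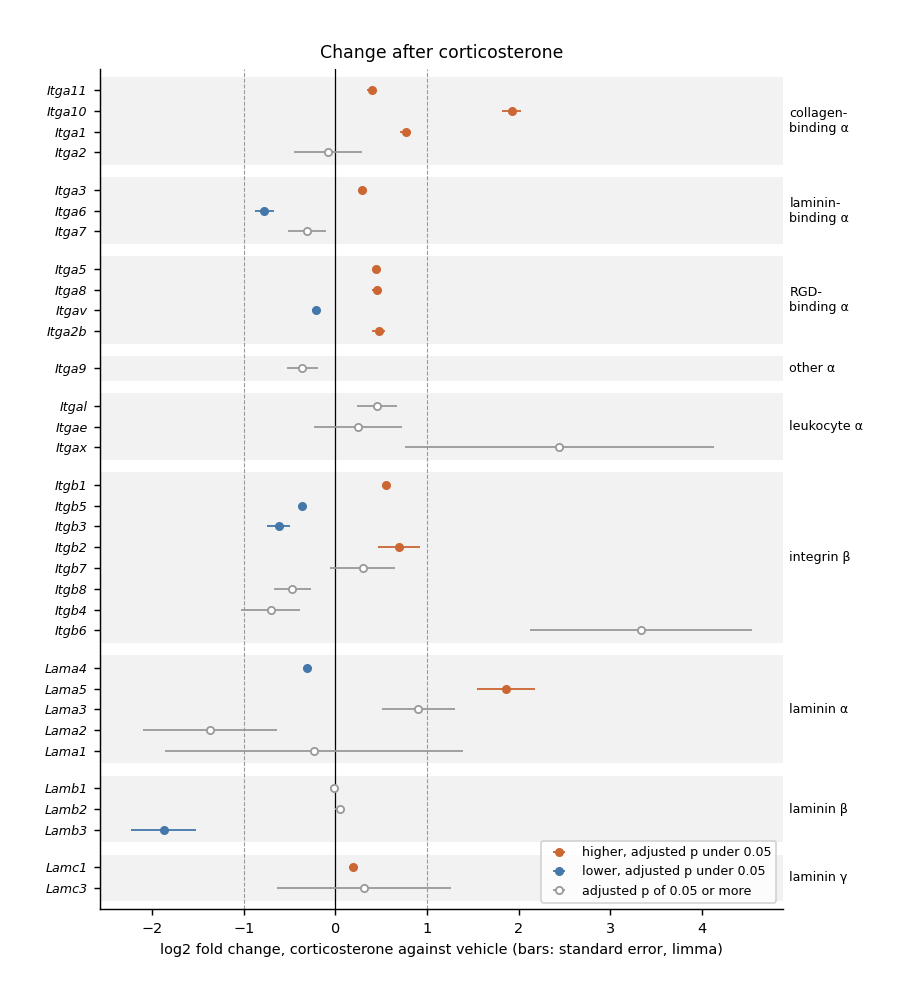
Log2 fold change (corticosterone over vehicle, horizontal axis) of each member named in the text, ordered by family, with bars of 1 standard error, dashed lines at -1 and 1, and filled points for adjusted p under 0.05. *Itga10* (1.92) and *Lama5* (1.86) lie farthest to the right among the members that rose, and *Lamb3* (-1.87) farthest to the left.

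The cells carried most markers of their label, while *Phex* lay close to the floor, at 0.772 to 9.94 normalized counts. *Runx2*, the osteoblast transcription factor, had 2227 to 2477 normalized counts in the vehicle libraries and 1027 to 1092 in the corticosterone libraries. Of 9 osteoblast markers, 7 fell and 0 rose, with a median log2 fold change of -0.41, while *Dmp1* and *Phex* did not pass the test. Over all genes 8.49% rose and 8.2% fell, and 14.2% and 13.5% of those with a mean of at least 10, as 8 of the 9 had. Without the variance trend *Alpl*, *Col1a1* and *Ibsp* lost the call (limma adjusted p = 0.21, 0.26 and 0.056). *Alpl* and *Col1a1* also lost it in fits that left out 1 library (limma adjusted p up to 0.12 and 0.19). The summed level of the list, nearly all of it the collagen genes *Col1a1* and *Col1a2*, was between 1258810 and 1302970 normalized counts with vehicle and between 1063570 and 1117600 with corticosterone. The part of these falls in the changes of the integrins and laminins was not tested.

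The start regions of 4 members are shown, the collagen-binding α subunit and the laminin chain with the largest log2 rise, and the most abundant β subunits, of which *Itgb1* rose and *Itgb5* fell. Each runs from 250 bases before to 50 bases after the start of the RefSeq gene on GRCm38.p6, 5′ to 3′ on the strand of the gene. Capitals mark the hexamer AGAACA (or TGTTCT), which is one arm of the element bound by the glucocorticoid receptor, and the GC box GGGCGG (or CCGCCC), searched on both strands.
*Itga10* (chr3:96645334-96645633, plus strand): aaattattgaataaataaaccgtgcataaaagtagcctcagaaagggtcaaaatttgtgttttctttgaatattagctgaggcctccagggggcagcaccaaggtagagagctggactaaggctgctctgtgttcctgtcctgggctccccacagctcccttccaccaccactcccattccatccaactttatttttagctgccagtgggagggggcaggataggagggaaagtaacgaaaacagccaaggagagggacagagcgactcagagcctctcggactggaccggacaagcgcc
*Itgb1* (chr8:128685404-128685703, plus strand): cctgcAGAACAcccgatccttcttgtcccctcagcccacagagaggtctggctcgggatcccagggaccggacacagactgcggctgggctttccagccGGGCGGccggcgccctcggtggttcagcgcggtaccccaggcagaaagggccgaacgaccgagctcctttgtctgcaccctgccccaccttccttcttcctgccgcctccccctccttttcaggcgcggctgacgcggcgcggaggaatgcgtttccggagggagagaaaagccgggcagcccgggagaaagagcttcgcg
*Itgb5* (chr16:33829415-33829714, plus strand): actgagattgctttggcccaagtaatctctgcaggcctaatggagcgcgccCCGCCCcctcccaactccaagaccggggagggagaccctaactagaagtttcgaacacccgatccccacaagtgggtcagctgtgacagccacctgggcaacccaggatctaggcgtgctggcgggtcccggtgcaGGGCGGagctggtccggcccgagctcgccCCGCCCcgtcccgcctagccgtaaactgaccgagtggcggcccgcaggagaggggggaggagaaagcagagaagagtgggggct
*Lama5* (chr2:180225810-180226109, minus strand): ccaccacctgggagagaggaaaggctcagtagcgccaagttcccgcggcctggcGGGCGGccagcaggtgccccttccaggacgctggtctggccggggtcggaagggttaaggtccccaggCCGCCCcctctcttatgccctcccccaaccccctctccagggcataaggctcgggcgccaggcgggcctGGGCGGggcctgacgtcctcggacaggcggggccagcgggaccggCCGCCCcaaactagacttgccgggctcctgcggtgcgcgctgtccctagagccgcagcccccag
The hexamer lay in 6 of the 24 member windows and in 19.0% of all 32851 windows. Its member windows belong to 6 of the 21 member genes that had one (*Itga2*, *Itgax*, *Itgb1*, *Itgb7*, *Lama2* and *Lamb3*). Of these 6 genes, *Itgb1* rose, *Lamb3* fell and 4 did not pass the test. The full element, AGAACA and TGTTCT around a gap of 3 bases, was in 0 of the 24 member windows and in 0.00913% of all windows. A GC box lay in 10 of the 24 member windows and in 35.7% of all windows. Its member windows belong to 9 genes, with 1 match for *Itgb1*, 3 for *Itgb5* and 4 for *Lama5*. The TATA box (TATAAA) was in 0 of 24 member windows and in 13.6% of all. CCAAT was in 4 of 24 member windows, those of 4 genes, and in 37.4% of all. The member windows had a median of 58.8% G and C bases, against 52.7% over all windows, and that of *Itga10* had 51%. A match is a description of letters, and binding was not measured.

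Of the 4 collagen-binding α subunits, *Itga1*, *Itga10* and *Itga11* rose and *Itga2* did not pass the test, with a median log2 fold change of 0.58 over the class. *Itga10* encodes the α10 subunit, a collagen receptor best known from cartilage. It had 487, 736 and 555 normalized counts with vehicle and 2271, 2206 and 2168 with corticosterone. The lowest corticosterone library was far above the highest vehicle library, and the mean was 3.74 times as high (log2 fold change 1.92 ± 0.10 SE, limma adjusted p = 9.8e-10). *Itga10* overlaps a gene model on the same strand, *Gm42957*, in 33.5% of its exon bases, so that reads there could be split between them. *Gm42957* itself had between 2.56 and 8.84 normalized counts in any library and did not pass the test (log2 fold change 0.06, limma adjusted p = 0.98).

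*Itga1*, which encodes a receptor preferring network-forming collagens, had 1021, 895 and 1000.2 normalized counts with vehicle and 1619.9, 1609 and 1732 with corticosterone. The groups were well separated, and its log2 fold change was 0.77 ± 0.06 SE (limma adjusted p = 7.2e-08). *Itga11*, the fibrillar collagen receptor of mesenchymal cells, had 5855, 5448 and 5948 normalized counts with vehicle and 7542, 7214 and 7909.9 with corticosterone. It was the most abundant α subunit per length in both groups, and its rise was smaller than those of *Itga1* and *Itga10* on the log2 scale (0.39 ± 0.05 SE, limma adjusted p = 8.5e-06). *Itga2*, whose product binds collagen on platelets and epithelia, stayed low, with 15.5 to 20.1 normalized counts with vehicle and 12.8 to 22.1 with corticosterone, and its groups overlapped (log2 fold change -0.08 ± 0.37 SE, limma adjusted p = 0.94).

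**Figure D2:**
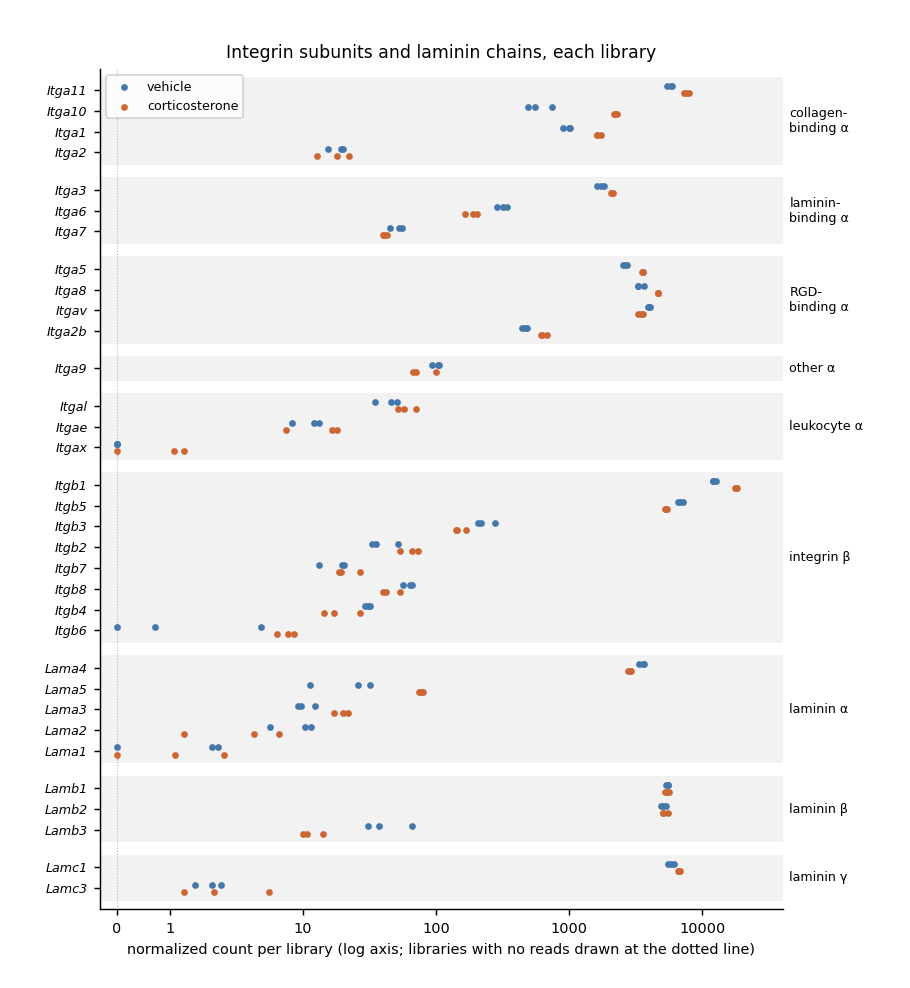
Normalized count (log axis, with libraries that had no reads at a dotted line) of each member named in the text, grouped by class on the vertical axis, in each of the 3 vehicle and 3 corticosterone libraries. *Itga10* shows a gap between the groups, from at most 736 with vehicle to at least 2168 with corticosterone, while *Lamb1* and *Lamb2* show overlapping groups.

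The laminin-binding α subunits moved in opposite directions. *Itga3*, a receptor of laminins in epithelia and in many cultured cells, had 1609.6, 1809 and 1717 normalized counts with vehicle and 2067, 2098 and 2119.8 with corticosterone. The groups did not overlap, and it rose by a log2 fold change of 0.29 ± 0.05 SE (limma adjusted p = 4.8e-04). *Itga6*, which encodes the partner of β1 or β4 in laminin receptors, had 289, 320.3 and 342 normalized counts with vehicle and 164, 203 and 189 with corticosterone. All corticosterone libraries were below all vehicle libraries, with a log2 fold change of -0.78 ± 0.10 SE (limma adjusted p = 3.9e-05). *Itga7*, the laminin receptor of muscle, had 45.4 to 55.6 normalized counts with vehicle and 39.6 to 43.1 with corticosterone, and did not pass the test (log2 fold change -0.31 ± 0.21 SE, limma adjusted p = 0.40).

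All 4 RGD-binding α subunits changed, 3 upwards. *Itga5*, which with β1 forms the main fibronectin receptor, had 2621, 2542 and 2696 normalized counts with vehicle and 3591, 3534 and 3585 with corticosterone (log2 fold change 0.45 ± 0.04 SE, limma adjusted p = 8.1e-07). *Itga8*, which with β1 binds nephronectin and fibronectin, had 3643, 3272 and 3295 with vehicle and 4612, 4647 and 4659 with corticosterone (log2 fold change 0.45 ± 0.05 SE, limma adjusted p = 2.2e-06). For both genes the spread within a group was small beside the gap between the groups. *Itga2b*, known as the platelet fibrinogen receptor subunit, had 465, 479 and 439.6 normalized counts with vehicle and 681, 616 and 623 with corticosterone. It rose without overlap (log2 fold change 0.47 ± 0.07 SE, limma adjusted p = 8.9e-05). In the same libraries 4 platelet markers with a row summed to 10.0 to 21.9 normalized counts with vehicle and 2.21 to 6.42 with corticosterone. Among them *Pf4* had 4.87, 1.54 and 1.03 with vehicle, close to or under the floor, and 0 in each corticosterone library. From at most 6 reads per library *Pf4* fell (log2 fold change -4.39 ± 1.42 SE, limma adjusted p = 0.044). Its limma adjusted p reached 0.18 in fits that left out 1 library. The other platelet markers with a row did not pass the test. *Itgav*, the vitronectin receptor subunit that pairs with several β subunits, went the other way, with 3912, 4030.4 and 3971 normalized counts with vehicle and 3453, 3564 and 3285 with corticosterone. Its fall was small and the groups did not overlap (log2 fold change -0.21 ± 0.04 SE, limma adjusted p = 0.0022).

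Whether the counting used the strand is not given in the sources used here, so reads of *Itgav* and *Itga8* cannot be told apart from those of the opposite-strand genes that overlap 5.9% and 5.05% of their exon bases. The levels of these 2 genes were at most 3.1 normalized counts for *Gm13684* (*Itgav*) and 19.7 to 43.9 for *E030013I19Rik* (*Itga8*).

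Among the other α subunits no test was passed. *Itga9*, a receptor of tenascin-C and osteopontin, had 92.6 to 105 normalized counts with vehicle and 67.5 to 101 with corticosterone, and its groups overlapped (log2 fold change -0.36 ± 0.17 SE, limma adjusted p = 0.20). The leukocyte subunit *Itgal* had 34.7 to 51.1 normalized counts with vehicle and 51.4 to 70.4 with corticosterone (limma adjusted p = 0.21). *Itgae*, whose product binds E-cadherin, had 7.49 to 17.9 over all libraries, and *Itgax* was at 0 in the vehicle libraries and at most at 1.28, under the floor, with corticosterone. The transcripts of *Itgax* share 10.7% of their stretches of 31 bases with *Itgad*.

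Among the 8 β subunits 2 rose and 2 fell. *Itgb1*, the common partner of the collagen, laminin and fibronectin receptors, had 12598, 12097 and 12036 normalized counts with vehicle and 18083, 17601 and 17939.6 with corticosterone. Its libraries were tightly grouped, and the mean rose 1.46-fold (log2 fold change 0.55 ± 0.04 SE, limma adjusted p = 1.5e-08). *Itgb5*, which pairs with αv as a vitronectin receptor, had 6567, 7183 and 6811 normalized counts with vehicle and 5235, 5308 and 5395 with corticosterone. It fell without overlap (log2 fold change -0.37 ± 0.04 SE, limma adjusted p = 7.0e-06). *Itgb3*, the other well-known partner of αv in bone, had 219, 276 and 205 normalized counts with vehicle and 143, 169 and 141 with corticosterone, and fell as well (log2 fold change -0.62 ± 0.12 SE, limma adjusted p = 0.0019). Thus *Itgav*, *Itgb3* and *Itgb5* were lower, while *Itgb1* was higher, in the same libraries.

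*Itgb2*, the β subunit of leukocyte integrins, had 35.7, 51.7 and 33.1 normalized counts with vehicle and 66.4, 72.9 and 53.7 with corticosterone. Its highest vehicle library was close to its lowest corticosterone library, and the log2 fold change of 0.70 ± 0.23 SE just passed the test (limma adjusted p = 0.047). This call was lost when any library except vehicle replicate 2 was left out and with DESeq2 (adjusted p = 0.087), with adjusted p between 0.022 and 0.21 over 17 alternatives. In the same libraries, 5 leukocyte markers with a row summed to 366 to 420 normalized counts with vehicle and 281 to 311 with corticosterone, and *Fcer1g* and *Lyz2* among them fell. *Ptprc*, which marks all leukocytes, was not analysed here. *Itgb6*, an epithelial activator of transforming growth factor β, had 4.87, 0.772 and 0 normalized counts with vehicle and 8.57, 7.73 and 6.4 with corticosterone. The groups did not overlap, yet at most 8 reads per library were counted and the test was not passed (limma adjusted p = 0.076, and 0.030 with a pseudocount of 1, within a range of 0.025 to 0.31 over 14 alternatives). *Itgb4*, *Itgb7* and *Itgb8*, the subunits of hemidesmosomes, of lymphocyte homing receptors and of a further receptor of latent transforming growth factor β, ranged from 13.1 to 65.6 normalized counts and did not pass the test (limma adjusted p = 0.17, 0.68 and 0.14). The groups did not overlap for *Itgb4* (29.3 to 32.1 with vehicle, 14.4 to 26.9 with corticosterone) or *Itgb8* (56.9 to 65.6 and 39.8 to 53.7).

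To compare subunits with each other, the counts were divided by the length in kilobases of the transcript with the longest coding sequence. On this scale the α subunits summed to 3727 ± 41.6 (SD, n = 3) with vehicle and 4928 ± 59.6 with corticosterone, and the β subunits to 5525 ± 77.2 and 6490 ± 60.9. *Itgb1* rose from 3209 ± 80.9 to 4685 ± 64.9 counts per kilobase, and the 10 α subunits that pair with it, other than *Itgav*, rose in sum from 3017 ± 51.8 to 4238 ± 77.0. The ratio of means was 1.46 for the β subunit and 1.40 for the sum of these partners.

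The α pool shifted towards the collagen receptors. They held 36.6% ± 0.592 (SD, n = 3) of the summed α count per kilobase with vehicle and 42.9% ± 0.938 with corticosterone, with no overlap between groups. Within them, the share of *Itga10* went from 3.16% ± 0.721 to 8.91% ± 0.262, while that of *Itga11* was 31.04% ± 1.10 and 30.8% ± 1.05 with overlapping groups. The RGD-binding subunits went from 50.5% ± 0.719 to 46.4% ± 0.835 and the laminin-binding subunits from 12.2% ± 0.807 to 10.2% ± 0.239, both without overlap. *Itgav* alone went from 15.1% ± 0.366 to 9.88% ± 0.522. Shares of a pool move against each other, so that a lower share is not by itself a lower level.

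The β pool consisted almost wholly of *Itgb1* and *Itgb5*. *Itgb1* took 58.1% ± 1.62 (SD, n = 3) of the summed β count per kilobase with vehicle and 72.2% ± 0.470 with corticosterone, and *Itgb5* 40.6% ± 1.54 and 26.8% ± 0.435. *Itgb3* held 0.728% ± 0.107 and 0.403% ± 0.0455. With the merged exons of each gene as its length, the share of *Itgb1* was 60.0% and 73.8% and that of the collagen receptors 41.6% and 47.4%, so that the levels moved with the length used and the direction did not.

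**Figure D3:**
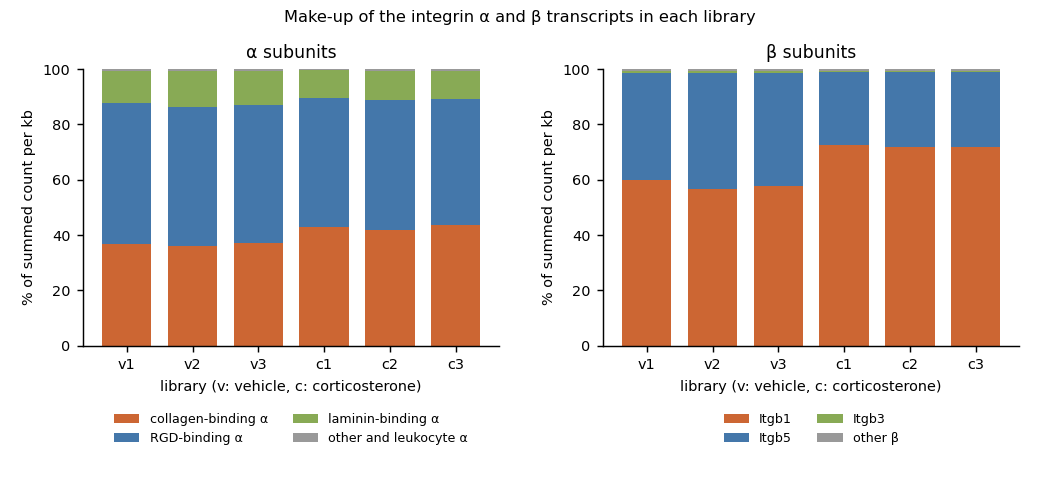
Share (percent) of the summed α count per kilobase held by each ligand class and of the summed β count per kilobase held by each β subunit, as stacked bars for each of the 3 vehicle (v1 to v3) and 3 corticosterone (c1 to c3) libraries. On average *Itgb1* went from 58.1% to 72.2% and *Itgb5* from 40.6% to 26.8%, and the collagen-binding α subunits from 36.6% to 42.9%.

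Nearly all laminin RNA per kilobase came from *Lama4*, *Lamb1*, *Lamb2* and *Lamc1*. Assembled trimers were not measured. *Lama4*, the α chain of mesenchymal and vascular laminins, held 99.3% ± 0.178 (SD, n = 3) of the summed α chain count per kilobase with vehicle and 98.1% ± 0.114 with corticosterone. Its normalized counts were 3621, 3359 and 3582 with vehicle and 2934, 2845 and 2756 with corticosterone, and it fell without overlap (log2 fold change -0.31 ± 0.05 SE, limma adjusted p = 1.1e-04). *Lamb1* and *Lamb2*, the widely expressed β chains, did not pass the test. With quantile normalization *Lamb1* was called lower (log2 fold change -0.12, limma adjusted p = 0.043). *Lamb1* had 5507, 5329 and 5529.6 normalized counts with vehicle and 5218, 5409 and 5564 with corticosterone, and *Lamb2* had 5319, 4899 and 5033 with vehicle and 5101, 5083 and 5555 with corticosterone. Both sets of groups overlapped, with log2 fold changes of -0.02 ± 0.04 SE and 0.05 ± 0.05 SE (limma adjusted p = 0.87 and 0.63), and that of *Lamb2* turned to -0.0235 with upper-quartile scaling and to -0.0489 with quantile normalization. *Lamc1*, the γ chain of most laminins, had 5833, 5549 and 6103 normalized counts with vehicle and 6561, 6628 and 6738 with corticosterone. Its rise was the smallest among the members that changed (log2 fold change 0.19 ± 0.04 SE, limma adjusted p = 0.0042), and it did not pass with upper-quartile scaling (limma adjusted p = 0.087) or quantile normalization (limma adjusted p = 0.19), where the range over 17 alternatives was 1.5e-04 to 0.19.

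Per kilobase, the summed α chains went from 586 ± 22.6 (SD, n = 3) to 479.7 ± 14.7, the β chains from 1855 ± 49.2 to 1867 ± 74.4 and the γ chains from 768 ± 37.1 to 879 ± 11.8. Each trimer takes 1 chain of each kind. The α sum was lower and the γ sum higher in every corticosterone library than in any vehicle library.

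The largest log2 fold changes among the laminins belonged to chains with few reads. *Lama5*, the α chain of epithelial and vascular basement membranes, had 25.9, 31.6 and 11.4 normalized counts with vehicle and 77.1, 79.5 and 74.2 with corticosterone, which is 11 to 72 reads. The corticosterone libraries were close to each other and well above the vehicle libraries (log2 fold change 1.86 ± 0.32 SE, limma adjusted p = 4.1e-04), and *Lama5* went from 0.347% to 1.41% of the α chain count per kilobase. *Lamb3* and *Lama3* encode chains of the laminin of hemidesmosomes in skin. *Lamb3* had 30.8, 65.6 and 37.2 normalized counts with vehicle and 10.7, 9.94 and 14.1 with corticosterone, and fell in every library below the lowest vehicle library (log2 fold change -1.87 ± 0.36 SE, limma adjusted p = 0.0012). *Lama3* had 9.26 to 12.4 normalized counts with vehicle and 17.1 to 21.7 with corticosterone, without overlap, and did not pass the test (limma adjusted p = 0.15).

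*Lama1* and *Lamc3* lay at or below the floor or close to it, at 5.52 normalized counts or less, and *Lama2*, the α chain of muscle laminin, at 1.28 to 11.6. None of these 3 passed the test. In these libraries 5 epithelial markers with a row summed to 234 to 351 normalized counts with vehicle and 130 to 159 with corticosterone. Nearly all of it was *Krt14*, which fell (limma adjusted p = 4.4e-05). *Krt5* and *Krt8* had at most 5.17 and 1.62 normalized counts with vehicle and 0 with corticosterone. *Cldn4* had 0 with vehicle and at most 3.31 with corticosterone. *Krt5*, *Krt8*, *Cldn4* and *Cdh1* did not pass the test. The 5 endothelial markers with a row summed to 7.24 to 16.2 and 2.21 to 17.9. The 5 muscle markers with a row summed to 83.5 to 95.2 and 133 to 177, and *Cnn1* among them rose. The part of these cell type markers in the changes of the laminins and integrins was not tested.

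Of 38 activators, adaptors and kinases that act at the cytoplasmic tails of integrins and had a row, 22 rose and 2 (*Tln2* and *Src*, named after their values were seen) fell, with a median log2 fold change of 0.20. Over all genes 8.49% rose and 8.2% fell, and 14.2% and 13.5% of those with a mean of at least 10, as 36 of the 38 had. Without the variance trend 7 rose and 0 fell. The count of rises was 12 with upper-quartile scaling, which lowered the median of all genes from -0.01 to -0.08. *Tns1*, a tensin that ties integrin tails to actin, had 524, 639 and 569 normalized counts with vehicle and 5169, 5293 and 5209 with corticosterone. No member that passed the test moved as far (log2 fold change 3.18 ± 0.06 SE, limma adjusted p = 5.9e-15). The tensin genes *Tns2* and *Tns3* rose by 0.56 and 0.66 on the log2 scale, *Bcar1*, a scaffold phosphorylated at adhesions, by 0.71 and its relative *Nedd9* by 0.53. *Lims2* (1.65) and *Tns4* (1.10) rose from few reads. *Lims2* lost the call when any library except vehicle replicate 1 was left out, and *Tns4* without vehicle replicate 1 or 3 or corticosterone replicate 2 or 3 (adjusted p up to 0.24 and 0.20 over 17 alternatives). Without the variance trend *Lims2* and *Tns4* lost it as well (limma adjusted p = 0.24 and 0.18). *Tns4* also lost it with upper-quartile scaling (limma adjusted p = 0.057) and with DESeq2 (adjusted p = 0.054).

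Of 25 non-collagen matrix and cell surface ligands with a row, 6 rose and 10 fell, with a median log2 fold change of -0.06. Beside these stand 14.2% and 13.5% of all genes with a mean of at least 10, which 21 of the 25 had, and 8.49% and 8.2% of all genes. Without the variance trend 4 rose and 5 fell. *Ccn2*, a matricellular ligand induced in connective tissue, rose from 969, 1057 and 962 to 2977, 2924 and 2811 normalized counts (log2 fold change 1.54 ± 0.05 SE, limma adjusted p = 3.8e-12), while *Ccn3* of the same family fell from 1322, 1132 and 1157 to 359.7, 429.6 and 452 (-1.54 ± 0.08 SE, limma adjusted p = 1.2e-09). *Ibsp*, bone sialoprotein, an RGD protein of mineralizing osteoblasts, fell by 1.20 on the log2 scale, and *Npnt*, nephronectin, a ligand of the receptor formed with *Itga8*, fell by 0.94. *Emilin1* fell by 0.37, while *Thbs1* rose by 0.59 and *Mfge8*, a ligand of αv integrins, by 0.42. *Itga8* rose in the same libraries in which *Npnt* fell.

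Of the 22 laminin partners in the basement membrane and non-integrin laminin receptors, 7 rose and 6 fell, with a median log2 fold change of 0.04. A mean of at least 10 was reached by 18 of them, and 14.2% of all such genes rose and 13.5% fell (8.49% and 8.2% of all genes). None of the 13 partners that changed moved by more than 1 on the log2 scale. The syndecans, heparan sulphate proteoglycans that bind laminin and fibronectin beside the integrins, differed: *Sdc1* rose by 0.59 and *Sdc4*, a co-receptor at focal adhesions, by 0.49, while *Sdc2* fell from 4099, 4463 and 4326 to 2425, 2434 and 2358 normalized counts (log2 fold change -0.84 ± 0.04 SE, limma adjusted p = 9.2e-10). *Ntn1*, a laminin-related guidance protein, rose by 0.38. The count of rises in this list was 4 with upper-quartile scaling and with quantile normalization, and without the variance trend 3 rose and 3 fell.

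**Figure D4:**
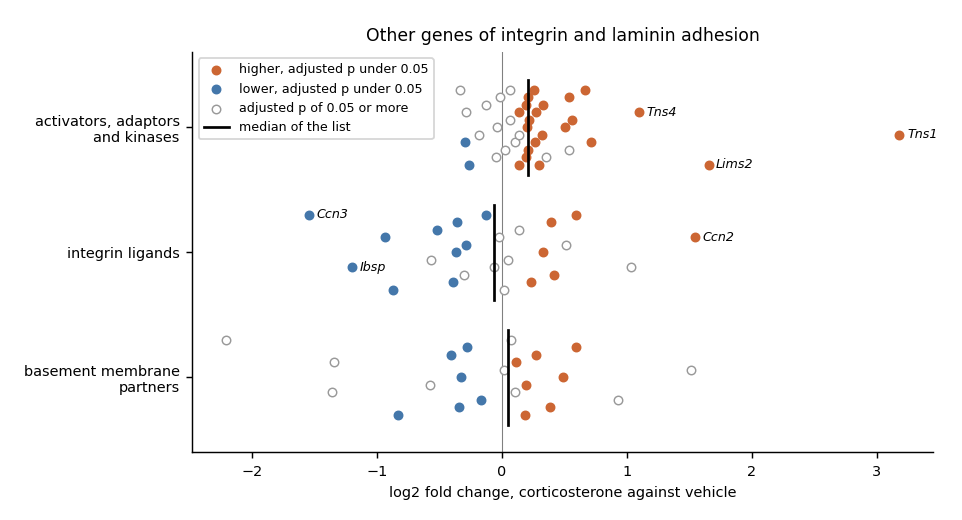
Log2 fold change (corticosterone over vehicle, horizontal axis) of each gene with a row in the lists of adhesion adaptors, integrin ligands and basement membrane partners, with filled points for adjusted p under 0.05 and a black bar at the median of each list. The adaptors that changed lie mostly to the right of 0, with *Tns1* at 3.18, and the ligands lie on both sides, from *Ccn3* at -1.54 to *Ccn2* at 1.54.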

How the data were processed

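Per the labels, total RNA of 3 vehicle and 3 corticosterone cultures was made into libraries with the NEBNext Ultra kit and sequenced. The table that the authors deposited gives a signal for each gene in each library, named FPKM. Within a library the values are whole multiples of a single step whatever the gene's length, so that they are reads scaled by a size factor, and 100% came back as whole reads within 0.01 reads. The submitters' processing notes give the build mm10, and the aligner, counting program and annotation are not given in the sources used here. A test for FPKM values had been planned, with edgeR quasi-likelihood in its place if the values turned out to be counts. Although the values are scaled reads, the test for FPKM values was kept as the main one, which departs from that plan. This was limma 3.58.1 in R 4.3.3 (lmFit, eBayes with trend) on log2(value + 0.1), two-sided. It took genes with a mean of at least 0.1, which removed no gene (lowest mean 0.257). Adjustment was Benjamini-Hochberg over all 24016 genes. With edgeR the same 18 members were called, in the same direction. Alternatives were edgeR 4.0.16 and DESeq2 1.42.0 on the recovered reads, other pseudocounts, filters and scalings, no variance trend, the replicate block, thinning, and leaving out each library. The length of merged exons was added after the data were seen. Members and lists were chosen with earlier results of these data known. Values per library are given for members that changed without overlap between groups and for the most abundant member of each family per kilobase, and also for *Itgb6* and *Lamb2*, which were chosen after their values were seen. From each list, genes past an absolute log2 fold change of 1 and up to 4 more with the smallest adjusted p are named. Symbols came from GENCODE for GRCm38 (23983 identifiers matched), sequences from RefSeq for GRCm38.p6. Shared stretches of 31 bases were counted between transcripts. Single-gene results of 1 member are not reported here, while counts, medians and sums include it. Scripts were tested on counts simulated at a set dispersion of 0.02, which was not estimated from these libraries. There limma recovered 4 of 67 changes of 0.5 on the log2 scale, 43 of 67 of 1 and 64 of 66 of 2, with 0 false calls. The edgeR fit recovered 16, 56 and 66 of them, with 5 false calls, and DESeq2 17, 50 and 64, with 15 false calls. No 2 libraries were duplicates, with a chi-square per degree of freedom of at least 3.38 within a treatment.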

Additional observations from a re-analysis of the deposited data

How the results depend on the processing

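The 18 calls among the members kept their direction under all 17 alternatives. Calls were lost without the variance trend (8 members), with thinned reads (*Itgb2* among them), upper-quartile scaling (*Itgb2* and *Lamc1*), quantile normalization (*Lamc1*), a pseudocount of 0.01 or DESeq2 (*Itgb2*), and when single libraries were left out (*Itgb2* among them). No variance trend left 2 integrin subunits lower, 1 laminin chain higher and 1 lower, 1 member past the fold threshold and higher, 7 adaptors higher and 0 lower, 5 ligands lower, and 3 basement membrane partners higher and 3 lower. Upper-quartile scaling left 12 adaptors and 4 basement membrane partners higher, and quantile normalization 4 of the latter. Calls gained included *Lamb1*, lower with quantile normalization, and *Lama3*, higher without the variance trend (limma adjusted p = 0.043 and 0.044). The causes were not tested. Among members that did not pass the test, the log2 fold change turned for *Lamb2* with upper-quartile scaling (-0.0235) and quantile normalization (-0.0489), and in thinned reads for *Lama1* (0.0266) and *Lamc3* (-1.29). Over fits leaving out 1 library it ranged from -0.26 to 0.13 for *Itga2*, from -1.74 to 1.15 for *Lama1*, from -0.038 to 0.0083 for *Lamb1* and from -0.24 to 0.77 for *Lamc3*. Cultures share only replicate numbers: deviations of same-numbered libraries from their group means correlated at -0.044, 0.0014 and 0.023 across 13880 genes. With the replicate block, 9 integrin subunits were higher and 4 lower, 3 laminin chains higher and 2 lower, and all 18 calls stayed. None of the 5 members with a mean under 10 was called, and whether depth decided this was not tested.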
